A study of Sus scrofa with 9 samples.

Results

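Collagen genes were taken as every symbol made of COL, a number, A and a number, which selected 38 of the 34580 genes and transcripts in the FPKM table. By textbook class they comprised 10 fibrillar collagens, 9 network-forming collagens, 7 FACITs (fibril-associated collagens with interrupted triple helices), 4 transmembrane collagens and 8 others. Of the 38, 34 passed a filter of at least 1 FPKM in at least 2 libraries and were tested. The other 4 were COL4A3, which was listed at 0 in every library, COL6A5, COL6A6 and COL19A1. COL11A1, COL12A1, COL20A1, COL26A1, COL6A1 and COL9A3 were not analysed here.

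RNA was sequenced from whole mandibular deciduous molar (Dm3) germs of miniature pig fetuses. The groups were embryonic day 40 (E40, cap stage), day 50 (E50, early bell stage) and day 60 (E60, late bell stage), with 3 libraries each. The labels name no treatment of the fetuses and do not say which animals lie behind a library, so p-values here measure the spread between these libraries, which may be technical. Each germ holds enamel organ, dental papilla and dental sac, and in bulk RNA fewer cells of a type and less RNA per cell cannot be told apart.

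Collagens are trimeric proteins whose chains wind into a triple helix of repeated glycine triplets. Fibrillar collagens build the cable-like fibrils of dental papilla and of the predentin that odontoblasts lay down at the bell stage. FACITs coat those fibrils, and network collagens of type IV form the basement membrane between enamel epithelium and papilla. The transmembrane collagen COL17A1 and the anchoring fibril collagen COL7A1 tie epithelial cells to that membrane.

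Every FPKM value was a whole multiple of what 1 read of that gene was worth, which gave library totals of 938999 to 1324331 reads at E40, 14376672 to 16692361 at E50, and 16140470, 1381350 and 1761189 in E60 libraries 1, 2 and 3. These totals were at most 1.001 times the sum of reads over the listed genes. They thus count reads assigned to genes, and the number of reads sequenced is not known from them. In this sense E50 libraries 1 to 3 and E60 library 1 are called deep below, and the other 5 libraries shallow. Pearson r of log2(FPKM + 0.1) over 19618 genes lay between 0.959 and 0.983 among the deep libraries, between 0.743 and 0.838 among the shallow ones, and between 0.301 and 0.609 across the sets. E60 library 1 thus stood apart from the other E60 libraries, and results at E60 are given with and without it. From E40 to E50 stage and depth set cannot be told apart, whereas E40 can be compared with E60 libraries 2 and 3 within the shallow set, and E50 with E60 library 1 within the deep set. The tooth germ markers MSX1, PAX9, DLX3 and SHH were above 0 in all 9 libraries. Values follow the order of libraries 1, 2 and 3 of a stage, errors are SD over 3 libraries unless given as SE, and a floor of 3 reads covers counting error only.

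FPKM divides reads by the length of the gene model, and so levels of different genes rest on those models. For 37 collagens the step size gave the model length, which ranged from 391 to 10028 bases with a median of 4254. The models of 8 collagens were shorter than 2000 bases, COL1A1 with 1480 bases against 5116 for its partner chain COL1A2, and COL25A1 with 391 and COL24A1 with 615 bases. Comparisons of the FPKM of 1 gene between libraries do not depend on its length. Shares of the summed collagen FPKM, used below, do depend on the lengths of all collagens in the sum. Of the 38 collagens, 2 to 10 had 3 reads or fewer in a library.

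Collagens took up more of the RNA at E50 than at E40. The summed FPKM of all 38 was 825, 1033 and 1271 at E40, 4059.6, 3475 and 3387 at E50, and 5252, 1044 and 2003 at E60. Every E50 library exceeded every E40 library, and within E60 the deep library lay far above the other two. As a share of all recovered reads, collagens made up 0.369, 0.466 and 0.571% at E40, 1.91, 1.64 and 1.58% at E50, and 2.36, 0.443 and 0.826% at E60, with 95% Wilson intervals of at most 0.0135 percentage points to either side. The E60 values spanned those of both earlier stages and followed the depth set.

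Because the summed FPKM moved with the depth set, each gene was also expressed as its share of the summed collagen FPKM of its own library. This share needs no scaling between libraries, but shares add up to 100%, so a higher share of 1 gene lowers the others. Fibrillar collagens held 69.9, 72.6 and 74.5% at E40, 85.3, 85.8 and 84.9% at E50, and 89.5, 83.0 and 84.9% at E60. Their share was higher at E50 and E60 than in any E40 library, 72.3 ± 2.33% against 85.3 ± 0.446% and 85.8 ± 3.37% (SD, n = 3). The network share was 9.35, 7.81 and 7.11% at E40, 5.34, 4.85 and 5.48% at E50, and 2.58, 4.23 and 4.03% at E60. It stepped down from stage to stage with no overlap, also without E60 library 1. This class holds COL10A1, which split by depth set (below), and the network share without that gene was not computed. From E40 to E50 stage and depth set cannot be told apart in this fall.

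FACITs held 5.54, 5.18 and 4.25% at E40, 1.89, 1.87 and 2.07% at E50, and 1.53, 2.81 and 2.70% at E60. Transmembrane collagens held 10.4, 9.15 and 8.61% at E40, 3.62, 3.92 and 3.78% at E50, and 3.67, 6.66 and 5.45% at E60. Both classes were highest at E40 in every library, and at E60 the shallow libraries lay above E50 and the deep library did not. The other collagens together held 4.79, 5.21 and 5.52% at E40, 3.88, 3.55 and 3.74% at E50, and 2.71, 3.34 and 2.95% at E60, and their shares did not overlap between stages.

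**Figure D1:**
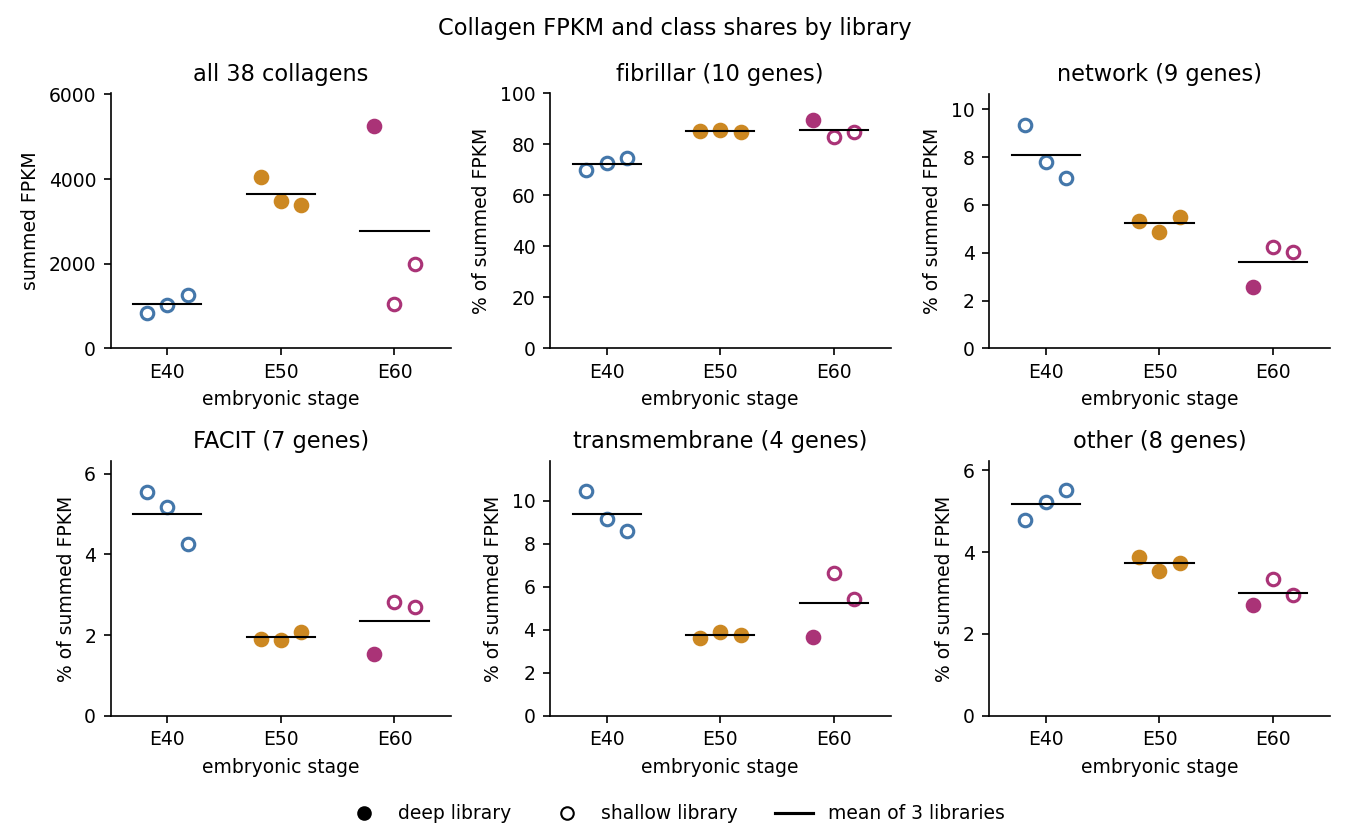
Summed FPKM of the 38 collagens (first panel, y axis in FPKM) and share of each class in that sum (other panels, y axis in percent) by embryonic stage (x axis). Each point is a library, filled for deep and open for shallow libraries, and lines are means of 3 libraries. Every E40 library lies below the others in the fibrillar panel and above them in the network, FACIT, transmembrane and other panels, with fibrillar means of 72.3% at E40, 85.3% at E50 and 85.8% at E60.

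The sum rested on few genes. COL3A1, COL1A2 and COL1A1 together held 62.8, 64.9 and 66.9% at E40, 80.0, 80.1 and 79.3% at E50, and 84.4, 77.9 and 79.7% at E60. To reach 90% of the sum took 12 to 13 genes at E40, 7 to 8 at E50, and 5, 9 and 7 genes in E60 libraries 1, 2 and 3. Besides these 3 genes, COL17A1 and COL5A2 reached 5% of the mean collagen sum at a stage, both at E40. The other collagens each stayed below 5% at every stage.

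Stages were compared with limma on log2(FPKM + 0.1) over all genes tested, once on the FPKM scale and once after division of each library by its summed collagen FPKM, the share scale. The limits were an adjusted p (Benjamini-Hochberg) under 0.05 and a fold change of at least 2. Fold changes on this scale understate the change of low genes. On the FPKM scale from E40 to E50, 12 collagens were higher and 2 lower at E50, 14 of 34, where 38.6% of all 19618 genes tested passed (16.8% higher and 21.8% lower). The median log2 change was 1.05 over the 34 collagens and 0.55 over all genes. Median-ratio scaling moved the median of all genes from 0.55 to -0.09 for E40 to E50, from -0.64 to 0.08 for E50 to E60 and from -0.22 to -0.12 for E40 to E60. Under it 8 collagens were higher and 2 lower at E50, where 12.2% and 24.9% of all genes were. The count leaned on single libraries. It was 15 higher and 2 lower without E60 library 1 (54.6% of 19493 genes passed), but 2 without E40 library 1 (1.09% of all genes), 5 without E40 library 2 (17.1%), 5 without E50 library 1 (17.6%), and 0 without E50 library 2 or without E50 library 3 (0.297% each), so that the count over all genes dropped with it. With a term for the depth set no collagen passed from E40 to E50 on either scale, where 0.255% (FPKM) and 0.143% (share) of all genes did. Only E60 holds both depths, so this term rests on E60 library 1 against E60 libraries 2 and 3. This fit therefore cannot decide whether a change from E40 to E50 belongs to stage.

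From E50 to E60 on the FPKM scale, limma called 0 of 34 collagens over all 9 libraries (0.0714% of all genes passed), 17 had an unadjusted p under 0.05 (30.2% of all genes did), and limma-voom on the recovered reads called 4 (1.03%). On this scale limma-voom also rescaled the libraries by a trimmed mean of M values. The median log2 change of all genes then was 0.05 from E50 to E60 and -0.06 from E40 to E50. Its counts therefore mix the change of model with that of scaling. Without E60 library 1, 4 collagens were higher and 20 lower at E60, where 59.1% of all genes passed and 39.1% were lower, so that this library decided the count. From E40 to E60, 1 collagen, COL22A1, passed over 9 libraries, where 1.8% of all genes did (0.663% higher and 1.14% lower), while limma-voom called 11 (14.5%). Median-ratio scaling gave 5 higher and 2 lower, where 3.67% of all genes passed. When E60 library 1 was left out it was joined by 4 lower collagens, COL14A1, COL21A1, COL4A5 and COL4A6, 5 of 34 against 6.06% of all genes (1.37% higher and 4.68% lower). The count was 2 without E40 library 1 (0.863% of all genes), 0 without E40 library 2 (0.689%) and 5 without E60 library 2 (6.11%).

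On the share scale from E40 to E50, 14 of 34 collagens fell and 0 rose, where 46.8% of all genes passed (44.2% lower and 2.56% higher). By limma-voom, too, 14 fell and 0 rose (47.9% of all genes passed), and 18 had an unadjusted p under 0.05 by limma in either direction (57.1% of all genes). The balance rested on the divisor, which every gene shared, collagen or not. On this scale the median log2 change of all genes was -1.20 from E40 to E50 and -1.29 from E40 to E60. Over the 34 collagens it was -0.71 and -0.86. Rates of genes that rose on this scale are therefore held down by the divisor. After division by the summed FPKM of the collagens other than COL3A1, COL1A1 and COL1A2, 6 collagens were higher and 4 lower at E50, where 35.1% of all genes passed (7.38% higher and 27.7% lower). From E40 to E60, 3 collagens rose (COL11A2, COL22A1 and COL24A1) and 12 fell, 15 of 34 against 29.9% of all genes (1.1% higher and 28.8% lower). With that other divisor, 5 were higher and 5 lower at E60, where 3.89% of all genes passed (1.45% higher and 2.44% lower). Leaving out E60 library 1, 2 collagens rose (COL11A2 and COL22A1) and 9 fell, 11 of 34 against 30.2% of all genes (1.47% higher and 28.8% lower). From E40 to E50 the count then was 1 higher (COL4A4) and 14 lower, against 50.7% of all genes. From E50 to E60 limma called 0 of 34 over 9 libraries (0.158% of all genes passed), 16 had an unadjusted p under 0.05 (24.1% of all genes) and limma-voom called 10 (3.09%). Without E60 library 1, 7 collagens were higher and 4 lower at E60, against 34.0% of all genes (26.2% higher and 7.81% lower). The 4 lower were COL14A1, COL21A1, COL4A5 and COL4A6.

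Each library was also left out in turn, and a call over 9 libraries was taken to stand where it passed in all 9 such fits. None of the 14 calls on the FPKM scale from E40 to E50 stood, nor did the 1 from E40 to E60. On the share scale 9 of 14 stood from E40 to E50 (COL10A1, COL14A1, COL17A1, COL1A1, COL21A1, COL28A1, COL2A1, COL4A5 and COL7A1) and 7 of 15 from E40 to E60 (COL14A1, COL21A1, COL22A1, COL4A5, COL4A6, COL6A2 and COL7A1). In the latter comparison COL2A1 lost its call without E40 library 2, COL8A1 without E40 library 1, COL4A2 and COL6A3 without E60 library 1, and COL4A1 without either E40 library 2 or E60 library 1. COL11A2 and COL24A1 each passed in 1 of the 9 fits and COL28A1 in 3. For E40 to E50 these fits cannot separate stage from depth set, since every E40 library was shallow and every E50 library deep.

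Libraries of like depth were also compared, in 2 contrasts that share no library. Within the shallow set, E40 against E60 libraries 2 and 3, the shares of COL14A1, COL21A1, COL4A5, COL4A6 and COL7A1 fell and that of COL22A1 rose, 6 of 33 collagens against 9.83% of 18426 genes (0.309% higher and 9.52% lower). Within the deep set, E50 against E60 library 1, the shares of COL1A1, COL22A1 and COL24A1 rose and those of 8 collagens fell, 11 of 31 against 16.5% of 14499 genes (1.25% higher and 15.2% lower). Here the lone E60 library was assumed to vary like the E50 libraries, so calls and SE of the deep set hold no spread between E60 libraries. Single genes of the deep set are therefore given below as log2 changes only. On the FPKM scale 3 collagens were called in the shallow set, all lower (1.3% of all genes passed, 0.212% higher and 1.09% lower), and 8 in the deep set, 6 higher and 2 lower (5.74% of all genes, 2.86% higher and 2.88% lower). Called in both sets on the share scale were COL22A1, higher at E60, and COL14A1, COL21A1, COL4A5 and COL4A6, lower at E60, where 0.149% and 3.68% of the 13465 genes tested in both sets were called higher and lower in both. On the FPKM scale 0 collagens were called in the same direction in both sets.

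**Figure D2:**
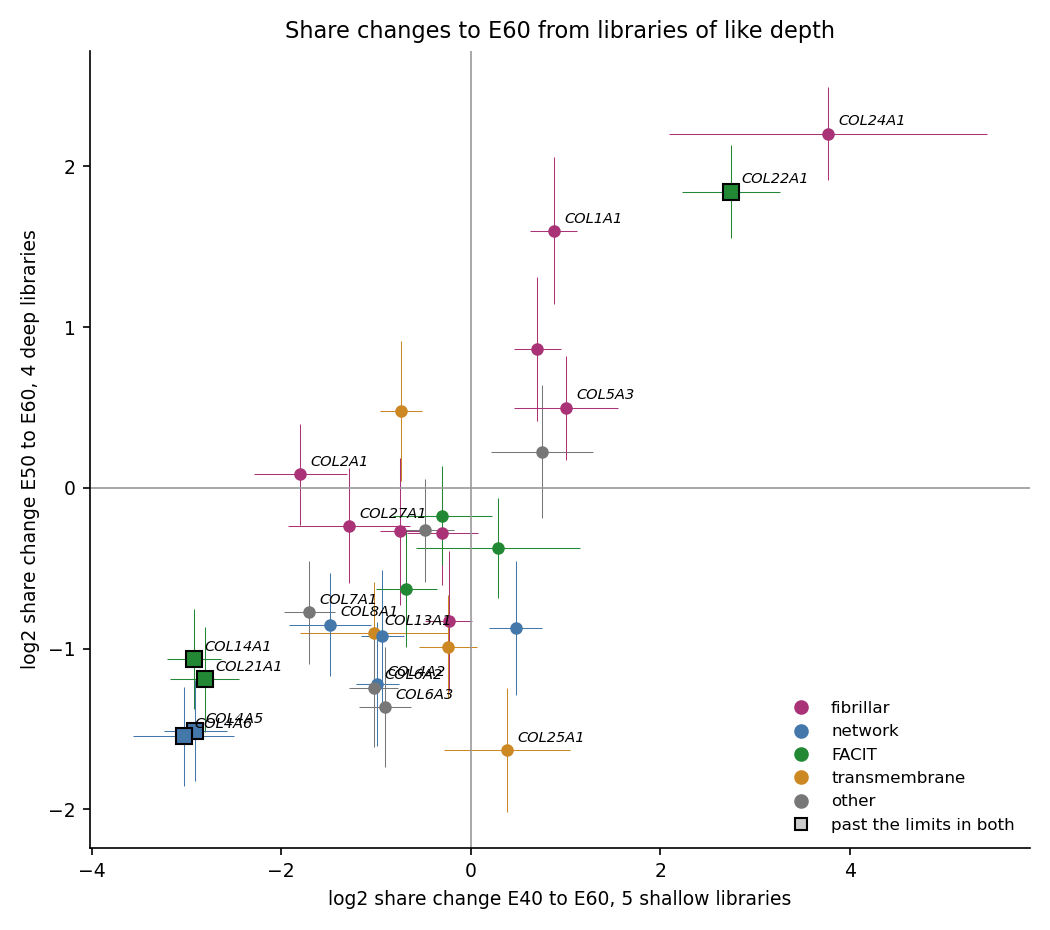
Log2 change of the share from E40 to E60 in the 5 shallow libraries (x axis) and from E50 to E60 in the 4 deep libraries (y axis) for the 30 collagens tested in both, which share no library. Points are collagens coloured by class, bars are SE, squares passed the limits in both, and genes beyond a log2 change of 1 on either axis are named. COL22A1 lies upper right, and COL14A1, COL21A1, COL4A5 and COL4A6 lie lower left.

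Of the 30 collagens tested in both sets, 25 moved the same way, 19 lower and 6 higher at E60, where 87.5% of 13465 genes had the same sign. As a description across genes, which are not independent replicates, Pearson r of the changes was 0.763 and Spearman rho 0.606 over the 30 collagens, against 0.421 and 0.408 over all genes. All these changes share the collagen sums of their libraries as divisor. So do those of all genes, whose median log2 change was -0.96 in the shallow set and -0.58 in the deep set. Rates of genes higher in both sets are held down by this divisor.

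COL3A1, the single chain of type III collagen of loose connective tissue, held the largest share at E40 and E50. It made up 38.2, 36.2 and 37.4% at E40, 51.8, 54.0 and 50.3% at E50, and 29.3, 30.9 and 32.4% at E60. Its share was highest at E50 and lowest at E60, with no overlap between stages. As FPKM it measured 315, 374 and 475 FPKM at E40, 2103, 1878 and 1703 FPKM at E50, and 1539, 323 and 649 FPKM at E60. On the FPKM scale it was higher at E50 than at E40 (log2 change 2.30 ± 0.58 SE, adjusted p = 0.018). On the share scale its changes did not pass the limits, with a log2 change of 0.48 ± 0.23 SE, adjusted p = 0.11 from E40 to E50 and of -0.75 ± 0.23 SE, adjusted p = 0.2 from E50 to E60.

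COL1A2, the α2 chain of type I collagen, the main protein of dentin and bone matrix, made up 15.5, 18.5 and 18.4% at E40, 23.9, 23.3 and 24.2% at E50, and 43.3, 30.5 and 26.3% at E60. It was the only collagen whose share rose at each step with no overlap, a pattern that 0.245% of all 19618 genes showed. All genes were divided by the collagen sum here, which lowered the median gene after E40. This rate therefore does not measure how rare such a rise was. As FPKM COL1A2 measured 128, 191 and 234 FPKM at E40, 970.2, 809 and 818 FPKM at E50, and 2276, 319 and 527 FPKM at E60. From E40 to E50 it rose on the FPKM scale (log2 change 2.27 ± 0.67 SE, adjusted p = 0.029). With a term for the depth set, which then carries most of that contrast, the log2 change was -0.20 and did not pass. From E50 to E60 its log2 change within the deep set was 1.40. Within the shallow set the change from E40 was 1.19 ± 0.37 SE, adjusted p = 0.17, both as FPKM. On the share scale its changes did not pass the limits. The log2 change was 0.45 ± 0.25 SE, adjusted p = 0.17 from E40 to E50 and 0.46 ± 0.25 SE, adjusted p = 0.28 from E50 to E60. From E40 to E60 it was 0.91 ± 0.25 SE, adjusted p = 0.029, short of 2-fold, and within the shallow set 0.70 ± 0.25 SE, adjusted p = 0.093.

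COL1A1, the α1 chain of type I collagen, made up 9.07, 10.3 and 11.2% at E40, 4.32, 2.81 and 4.88% at E50, and 11.8, 16.5 and 20.9% at E60. Its share was lowest at E50 and highest at E60 without overlap, and it fell from E40 to E50 on the share scale (log2 change -1.38 ± 0.29 SE, adjusted p = 0.01). As FPKM it measured 74.8, 106 and 142 FPKM at E40, 175, 97.6 and 165 FPKM at E50, and 620.1, 172 and 419 FPKM at E60. Within the deep set E60 library 1 lay above the E50 libraries on both scales, with log2 changes of 2.13 as FPKM and 1.60 as a share. In the shallow set the share change from E40 was 0.88 ± 0.25 SE, adjusted p = 0.065.

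Type I collagen is a trimer of both chains in a fixed proportion. The COL1A1 to COL1A2 ratio was 0.584, 0.554 and 0.607 at E40, 0.181, 0.121 and 0.202 at E50, and 0.272, 0.541 and 0.795 at E60. It lay between 0.121 and 0.272 in the 4 deep libraries and between 0.541 and 0.795 in the 5 shallow ones. Within the deep set E60 library 1 lay above all 3 E50 libraries. Together both chains held 24.6, 28.8 and 29.5% of the sum at E40, 28.2, 26.1 and 29.0% at E50, and 55.1, 47.0 and 47.3% at E60. This summed type I share was 27.6% ± 2.65 at E40, 27.8% ± 1.52 at E50 and 49.8% ± 4.61 at E60 (SD, n = 3), and all 3 E60 libraries lay above all others.

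The COL3A1 to COL1A2 ratio was 2.46, 1.95 and 2.03 at E40, 2.17, 2.32 and 2.08 at E50, and 0.676, 1.01 and 1.23 at E60. It was alike at E40 and E50, where the libraries overlapped, and lower in each E60 library, 2.15 ± 0.272, 2.19 ± 0.121 and 0.973 ± 0.279 (SD, n = 3). The separation of E60 held in both depth sets. This ratio was chosen after the values of the 3 genes were seen.

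**Figure D3:**
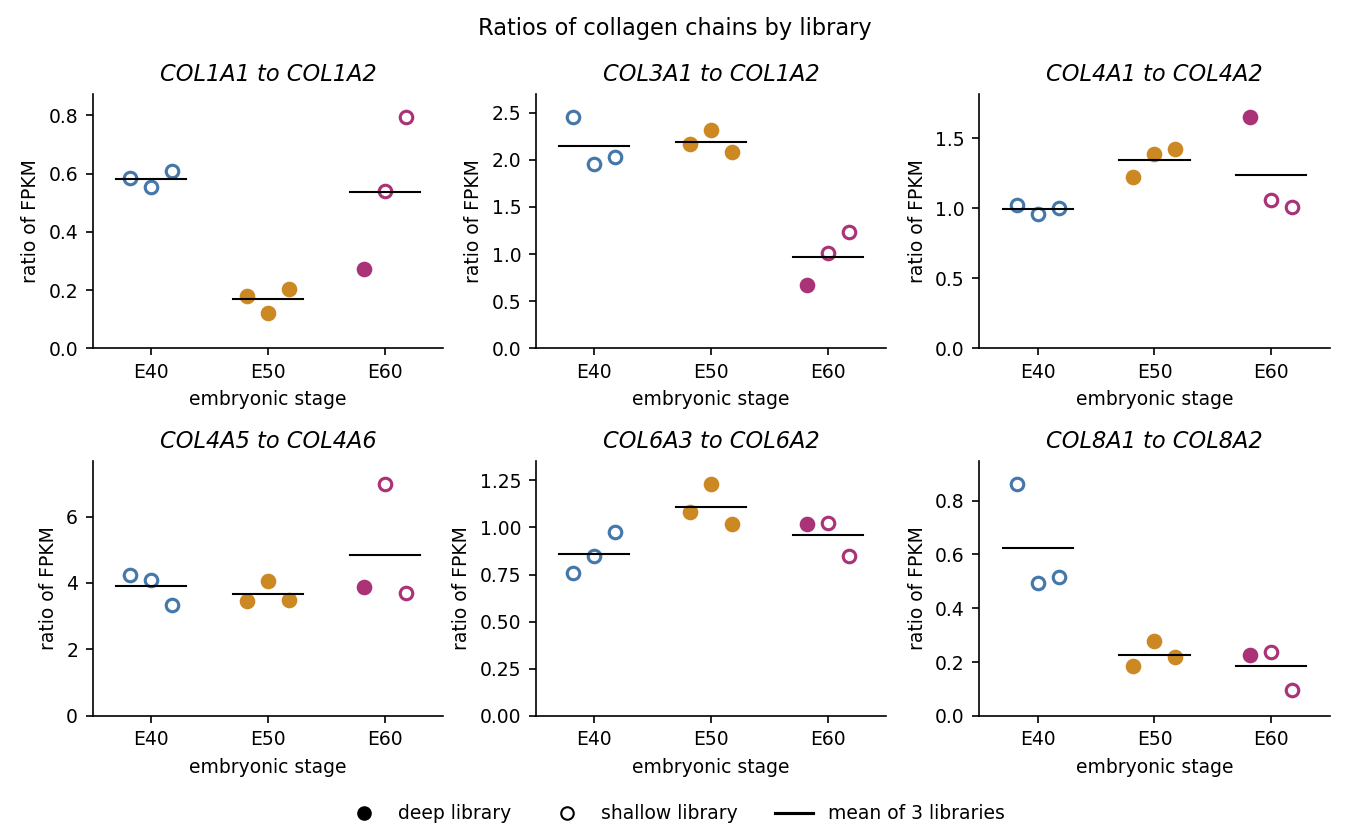
Ratios of FPKM between collagen chains (y axis, starting at 0) by stage (x axis). Each point is a library, filled for deep and open for shallow, and lines are means of 3 libraries. COL1A1 to COL1A2 and COL4A1 to COL4A2 separate by depth set, whereas COL3A1 to COL1A2 is at most 1.23 in the E60 libraries and at least 1.95 in the others.

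Type V collagen sits inside type I fibrils and sets their width. COL5A2 made up 5.71, 6.29 and 6.48% at E40, 4.54, 5.10 and 4.90% at E50, and 4.01, 3.55 and 3.76% at E60. Its share stepped down at each stage without overlap, one of 9 collagens that did so (5.19% of all genes), but the log2 change from E40 to E60 was -0.71 ± 0.16 SE, adjusted p = 0.016, short of a fold change of 2. Among the collagens other than COL3A1, COL1A1 and COL1A2 its log2 change turned to 0.17. COL5A2 measured 47.1, 65.0 and 82.3 FPKM at E40, 184, 177 and 166 FPKM at E50, and 211, 37.1 and 75.3 FPKM at E60, and COL5A1 4.80, 7.09 and 6.68 FPKM at E40, 16.4, 10.21 and 13.4 FPKM at E50, and 15.6, 3.64 and 13.3 FPKM at E60. The COL5A1 to COL5A2 ratio was 0.102, 0.109 and 0.0812 at E40, 0.0892, 0.0576 and 0.0805 at E50, and 0.0739, 0.0983 and 0.177 at E60, and no stage stood apart. COL5A3 was not called over 9 libraries, with shares of 0.0728 to 0.138% at E40, 0.0591 to 0.0704% at E50 and 0.0922 to 0.287% at E60.

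The minor fibrillar chains COL11A2 and COL24A1 were highest at E60. COL11A2, a chain of type XI collagen known from cartilage fibrils, measured 0.330, 1.03 and 0.585 FPKM at E40, 0.687, 0.381 and 0.517 FPKM at E50, and 7.72, 2.58 and 4.40 FPKM at E60. These values rest on 2, 7 and 5 reads at E40, 65, 41 and 48 at E50, and 804, 23 and 50 at E60, at or near the floor in 1 E40 library. Its share rose from E40 to E60 (log2 change 1.74 ± 0.58 SE, adjusted p = 0.049, and 1.94 ± 0.59 SE, adjusted p = 0.036 without E60 library 1). This call was lost in each of the other 8 fits that left out a library (adjusted p up to 0.12), by limma-voom (0.062), without the filter on low values (0.098), within the shallow set (0.091) and with only the 2 stages compared (0.095). It fell from E40 to E50 (-1.75 ± 0.58 SE, adjusted p = 0.034, a call that stood in 3 of 9 fits without 1 library).

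COL24A1, a fibrillar collagen described in developing bone, measured 1.73, 0 and 0 FPKM at E40, 2.77, 3.02 and 3.17 FPKM at E50, and 20.3, 4.71 and 4.62 FPKM at E60. It rested on 1, 0 and 0 reads at E40, 25, 31 and 28 at E50, and 202, 4 and 5 at E60, with E40 under the floor of 3 reads. In the deep set, where the reads allow a fold, the log2 change from E50 to E60 library 1 was 2.20 as a share and 2.73 as FPKM. Against E40 the pooled reads of E60 libraries 2 and 3 were 9 against 1, a ratio of reads per library total of 9.49 with an exact 95% counting interval of 1.32 to 416. Over 9 libraries it passed from E40 to E50 on the FPKM scale and from E40 to E60 on the share scale, and the latter call was lost without E60 library 1 (4.29 ± 1.53 SE, adjusted p = 0.058).

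COL2A1, the chain of cartilage type II collagen, measured 1.81, 3.56 and 3.59 FPKM at E40, 3.62, 2.20 and 2.96 FPKM at E50, and 4.40, 0.985 and 1.16 FPKM at E60. Its share was 0.219, 0.344 and 0.283% at E40, 0.0891, 0.0633 and 0.0873% at E50, and 0.0838, 0.0944 and 0.0578% at E60 and fell from E40 to E50 (log2 change -1.76 ± 0.42 SE, adjusted p = 0.012) and from E40 to E60 (-1.79 ± 0.42 SE, adjusted p = 0.018). Within the shallow set the share change of COL2A1 from E40 missed the limit (-1.80 ± 0.49 SE, adjusted p = 0.061). Within the deep set its log2 change from E50 was 0.08. From E40 to E50 stage and depth set cannot be told apart. COL27A1, a fibrillar collagen with a short helix, held 0.220, 0.130 and 0.152% at E40, 0.0600, 0.0518 and 0.0530% at E50, and 0.0462, 0.0393 and 0.0965% at E60, with a fall from E40 to E50 (-1.51 ± 0.52 SE, adjusted p = 0.04). Both shares were highest at E40, on 5 to 14 reads per library.

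Among the network collagens, COL4A1 and COL4A2 are the chains found in nearly all basement membranes. COL4A1 measured 14.4, 18.2 and 21.1 FPKM at E40, 61.9, 47.2 and 50.3 FPKM at E50, and 40.2, 9.33 and 18.1 FPKM at E60, and COL4A2 14.0, 19.0 and 21.1 FPKM at E40, 50.4, 33.9 and 35.4 FPKM at E50, and 24.3, 8.80 and 18.0 FPKM at E60. COL4A1 rose from E40 to E50 on the FPKM scale (log2 change 1.57 ± 0.50 SE, adjusted p = 0.036), whereas COL4A2 missed the limit (1.14 ± 0.42 SE, adjusted p = 0.059). With the depth term the log2 change of COL4A1 was -0.052.

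As shares, COL4A1 held 1.74, 1.76 and 1.66% at E40, 1.52, 1.36 and 1.49% at E50, and 0.766, 0.894 and 0.904% at E60. COL4A2 held 1.70, 1.84 and 1.66% at E40, 1.24, 0.976 and 1.04% at E50, and 0.463, 0.843 and 0.897% at E60. Both stepped down at each stage, with log2 changes from E40 to E60 of -1.01 ± 0.17 SE, adjusted p = 0.0071 for COL4A1 and -1.29 ± 0.27 SE, adjusted p = 0.014 for COL4A2. With E60 library 1 left out both missed a fold change of 2, at log2 changes of -0.93 ± 0.16 SE, adjusted p = 0.0062 for COL4A1 and -0.99 ± 0.18 SE, adjusted p = 0.0076 for COL4A2. The COL4A1 to COL4A2 ratio was 1.03, 0.959 and 0.9996 at E40, 1.23, 1.39 and 1.42 at E50, and 1.66, 1.06 and 1.01 at E60, between 0.959 and 1.06 in shallow and between 1.23 and 1.66 in deep libraries. The endothelial markers PECAM1, KDR, TEK and VWF summed to 19.0 to 21.7 FPKM at E40, 52.2 to 56.3 FPKM at E50, and 16.6 to 63.2 FPKM at E60, with the deep libraries highest, and their part in the COL4A1 and COL4A2 levels was not tested.

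COL4A5 and COL4A6, chains of the basement membranes under epithelia, were lower at E60 in both depth sets. COL4A5 measured 11.1, 10.8 and 11.6 FPKM at E40, 15.9, 14.6 and 12.6 FPKM at E50, and 7.17, 1.65 and 2.41 FPKM at E60. COL4A6 measured 2.61, 2.64 and 3.46 FPKM at E40, 4.60, 3.60 and 3.61 FPKM at E50, and 1.85, 0.237 and 0.650 FPKM at E60. In each depth set the E60 libraries lay below every library of the earlier stage, for both genes.

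As shares, COL4A5 held 1.35, 1.05 and 0.910% at E40, 0.391, 0.420 and 0.372% at E50, and 0.136, 0.158 and 0.120% at E60. COL4A6 held 0.317, 0.256 and 0.272% at E40, 0.113, 0.104 and 0.106% at E50, and 0.0353, 0.0227 and 0.0325% at E60. From E40 to E60 the log2 change was -2.95 ± 0.26 SE, adjusted p = 9.4e-04 for COL4A5 and -3.08 ± 0.42 SE, adjusted p = 0.0041 for COL4A6. The shallow set gave -2.91 ± 0.33 SE, adjusted p = 0.026 for COL4A5 and -3.03 ± 0.53 SE, adjusted p = 0.043 for COL4A6. The deep set, from E50 to its lone E60 library, gave -1.51 for COL4A5 and -1.55 for COL4A6.

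The COL4A5 to COL4A6 ratio stayed between 3.35 and 6.97 in all 9 libraries, its highest value on 7 and 2 reads in E60 library 2. The 2 genes are neighbours on chromosome X in the RefSeq annotation of Sscrofa11.1. Of the 8 listed epithelial markers, the basal keratin gene KRT15 was also lower at each step, 552, 611 and 750.3 FPKM at E40, 85.4, 64.7 and 91.2 FPKM at E50, and 27.5, 8.76 and 37.6 FPKM at E60, but KRT5 and KRT14 overlapped between E50 and E60 and the sum of the list was higher in each E60 library than in any E50 library. Their part in the COL4A5 and COL4A6 values was not tested. COL4A4, a chain of the glomerular type of network, measured 0.163, 0.726 and 0.231 FPKM at E40, 4.09, 3.71 and 3.07 FPKM at E50, and 2.87, 0.663 and 1.13 FPKM at E60 and rose from E40 to E50 on the FPKM scale (log2 change 3.16 ± 0.71 SE, adjusted p = 0.014), on 1, 5 and 2 reads at E40, 393, 406 and 289 at E50, and 303, 6 and 13 at E60. COL4A3, its neighbour on chromosome 15 in that annotation, was listed at 0 throughout.

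The short-chain network collagens of type VIII, COL8A1 and COL8A2, are known from vessel walls and corneal basement membrane. COL8A2 measured 7.17, 8.82 and 11.4 FPKM at E40, 67.5, 51.3 and 66.1 FPKM at E50, and 48.3, 10.4 and 29.6 FPKM at E60 and rose from E40 to E50 (log2 change 2.76 ± 0.53 SE, adjusted p = 0.012). COL8A1 measured 6.17, 4.37 and 5.89 FPKM at E40, 12.5, 14.3 and 14.5 FPKM at E50, and 11.0, 2.46 and 2.84 FPKM at E60. The share of COL8A1 fell from E40 to E60 (log2 change -1.44 ± 0.34 SE, adjusted p = 0.018), while that of COL8A2 was 0.34 ± 0.23 SE, adjusted p = 0.24. The COL8A1 to COL8A2 ratio was 0.861, 0.495 and 0.517 at E40, 0.186, 0.278 and 0.219 at E50, and 0.227, 0.236 and 0.0957 at E60, lower in every E50 and E60 library than in any E40 library.

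COL10A1, the network collagen of hypertrophic cartilage, split by depth set. It measured 21.5, 16.1 and 15.6 FPKM at E40, 0.128, 0.0564 and 0.0655 FPKM at E50, and 0, 10.6 and 8.02 FPKM at E60, on 43, 36 and 44 reads at E40, 4, 2 and 2 at E50, and 0, 31 and 30 at E60. All 5 shallow libraries had at least 30 reads, and the deep libraries had 0 to 4. In its call as lower at E50 (log2 change -6.61 ± 1.51 SE, adjusted p = 0.014) stage and depth set cannot be told apart. COL28A1, an other collagen described around peripheral nerve, was lower in the deep libraries too, at 2.49, 3.06 and 1.55 FPKM at E40, 0.01995, 0.105 and 0.0407 FPKM at E50, and 0.127, 0.636 and 0.499 FPKM at E60, on 8, 11 and 7 reads at E40, 1, 6 and 2 at E50, and 7, 3 and 3 at E60, with a log2 change from E40 to E50 of -3.98 ± 0.73 SE, adjusted p = 0.012. CHAD, a cartilage marker, had the same split, 7.07 to 13.5 FPKM in shallow and 0.154 to 0.322 FPKM in deep libraries, but HAPLN1 and the sum of the 7 listed cartilage markers, given with type IX collagen, were higher in every deep library than in any shallow one. A common source was not tested.

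Of the FACITs, COL14A1 and COL21A1 fell and COL22A1 rose towards E60. COL14A1, which binds the surface of type I fibrils, measured 10.1, 14.5 and 15.9 FPKM at E40, 12.0, 13.6 and 11.9 FPKM at E50, and 8.57, 1.91 and 2.92 FPKM at E60. Its share was 1.23, 1.40 and 1.25% at E40, 0.295, 0.392 and 0.352% at E50, and 0.163, 0.183 and 0.146% at E60. The E60 libraries lay lowest in both depth sets, on both scales. The log2 change of its share was -1.89 ± 0.24 SE, adjusted p = 0.0066 from E40 to E50 and -2.95 ± 0.24 SE, adjusted p = 7.4e-04 from E40 to E60. Within the shallow set it was -2.92 ± 0.28 SE, adjusted p = 0.018, from E40, and within the deep set -1.06 from E50.

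COL21A1, a FACIT described in vessel walls, measured 8.01, 12.3 and 13.1 FPKM at E40, 16.2, 16.9 and 15.5 FPKM at E50, and 10.19, 2.04 and 2.14 FPKM at E60. Its share was 0.971, 1.19 and 1.03% at E40, 0.398, 0.486 and 0.459% at E50, and 0.194, 0.196 and 0.107% at E60. The log2 change of its share from E40 to E60 was -2.70 ± 0.30 SE, adjusted p = 0.0022, with -2.81 ± 0.36 SE, adjusted p = 0.035 within the shallow set. From E50 within the deep set it was -1.19. As FPKM, both genes passed as lower from E40 to E60 within the shallow set, with log2 changes of -2.44 ± 0.40 SE, adjusted p = 0.043 for COL14A1 and -2.33 ± 0.40 SE, adjusted p = 0.048 for COL21A1. In the deep set, from E50, the log2 changes as FPKM fell short of 2-fold, at -0.54 for COL14A1 and -0.66 for COL21A1.

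COL22A1, a FACIT found at tissue junctions, was the 1 collagen called from E40 to E60 on both scales. It measured 1.45, 0.649 and 1.55 FPKM at E40, 5.14, 4.02 and 4.02 FPKM at E50, and 23.0, 7.58 and 17.2 FPKM at E60, on 6, 3 and 9 reads at E40, 331, 295 and 254 at E50, and 1630, 46 and 133 at E60. Its share was 0.176, 0.0628 and 0.122% at E40, 0.127, 0.116 and 0.119% at E50, and 0.438, 0.727 and 0.859% at E60, overlapping between E40 and E50 and higher in every E60 library. The log2 change from E40 to E60 was 3.55 ± 0.54 SE, adjusted p = 0.014, as FPKM and 2.51 ± 0.45 SE, adjusted p = 0.0088, as a share. Without E60 library 1 it was 3.21 ± 0.48 SE, adjusted p = 0.01, and 2.78 ± 0.44 SE, adjusted p = 0.005. Within the deep set its share rose by 1.84 from E50, and within the shallow set by 2.74 ± 0.52 SE, adjusted p = 0.045 from E40, both on the log2 scale. The FPKM call was lost without E40 library 2 (adjusted p = 0.056), and with only the 2 stages compared both calls were lost (adjusted p = 0.14 as FPKM and 0.069 as a share). As FPKM the change within the shallow set missed the threshold (3.21 ± 0.60 SE, adjusted p = 0.059).

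**Figure D4:**
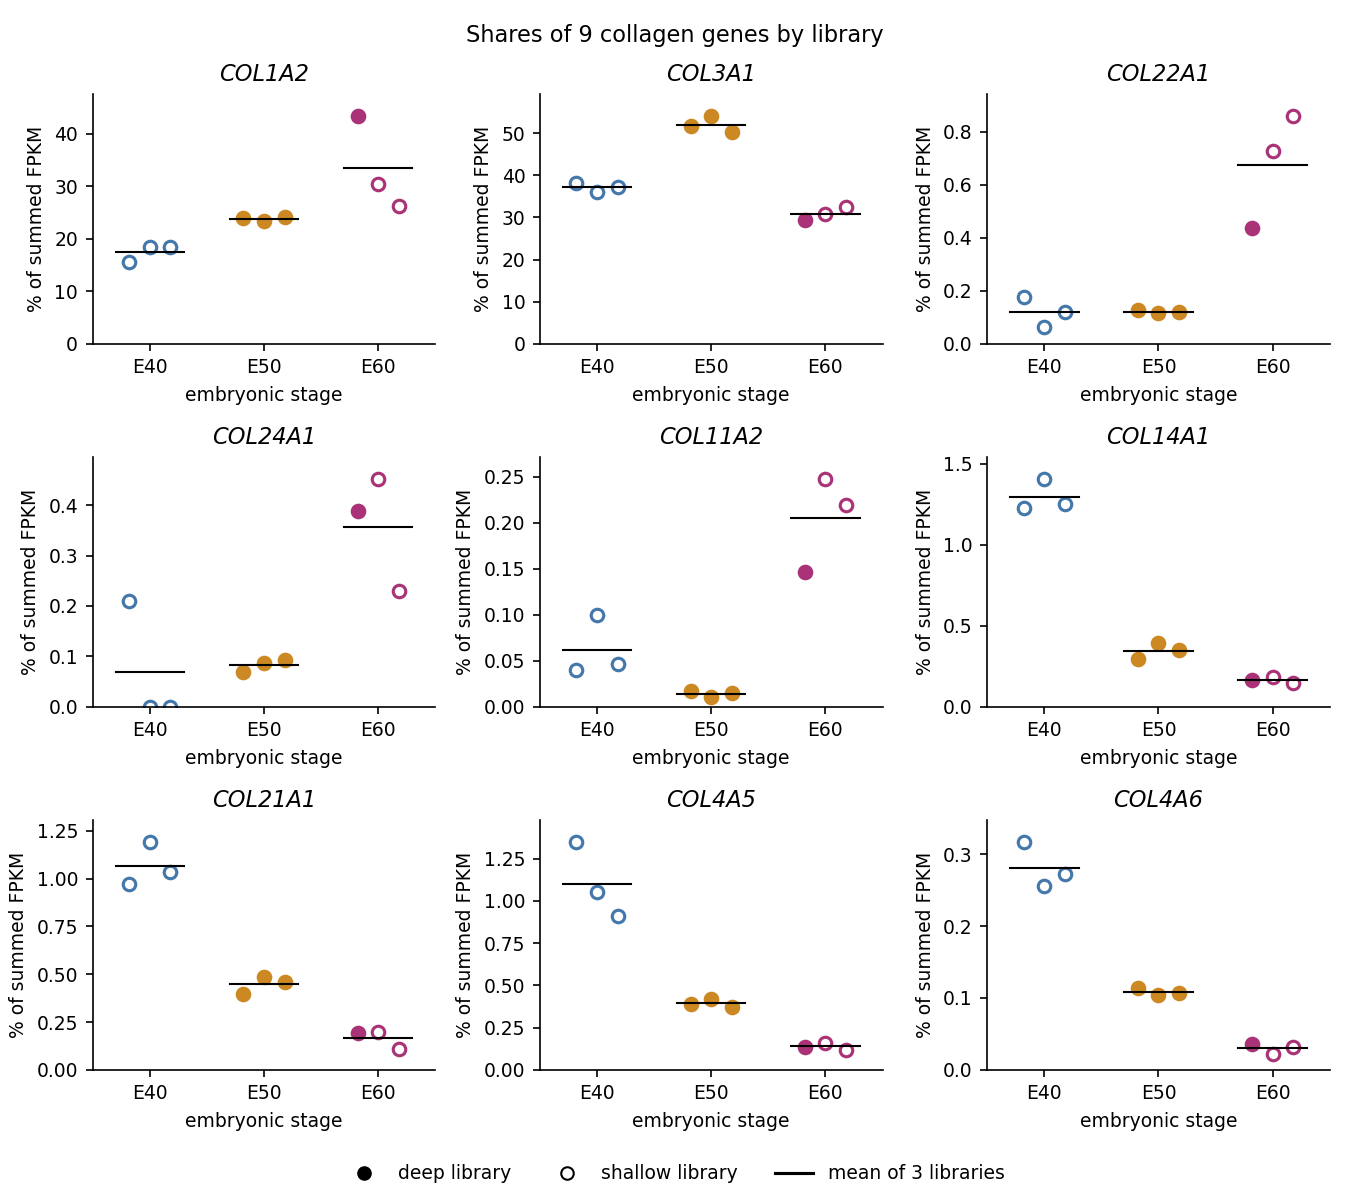
Share of the summed collagen FPKM (y axis, percent, starting at 0) by stage (x axis) for 9 collagens. Each point is a library, filled for deep and open for shallow, and lines are means of 3 libraries. COL22A1 lies at 0.438 to 0.859% at E60 and at 0.0628 to 0.176% at E40, while COL14A1, COL21A1, COL4A5 and COL4A6 step down from E40 to E50 to E60 without overlap.

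Odontoblast markers were high at the stage at which COL22A1, COL24A1, COL11A2 and type I collagen were highest. DSPP, which encodes the main noncollagenous protein of dentin, measured 2.62, 1.41 and 0 FPKM at E40, 1.31, 1.42 and 0.857 FPKM at E50, and 393, 174 and 194 FPKM at E60, and DMP1 0.689, 2.15 and 0.732 FPKM at E40, 0.948, 1.32 and 0.945 FPKM at E50, and 55.5, 15.9 and 36.7 FPKM at E60. The 3 odontoblast markers summed to 0.732 to 3.56 FPKM at E40, 1.84 to 2.88 FPKM at E50, and 191 to 449 FPKM at E60, and their part in these collagen values was not tested. MEPE, the third of them, stayed at or below 1.08 FPKM. The bone markers RUNX2, BGLAP, IBSP and ALPL summed to 44.99 to 64.9 FPKM at E40, 14.7 to 17.1 FPKM at E50, and 24.3 to 29.7 FPKM at E60, highest at E40, with ALPL listed at 0 in every library.

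COL9A1 and COL9A2, chains of the type IX FACIT of cartilage fibrils, held 0.919, 0.288 and 0.575% at E40, 0.266, 0.259 and 0.308% at E50, and 0.245, 0.415 and 0.452% at E60 and 1.97, 1.996 and 1.18% at E40, 0.691, 0.547 and 0.732% at E50, and 0.421, 1.06 and 1.018% at E60, respectively. The share of COL9A2 fell from E40 to E50 (log2 change -1.35 ± 0.39 SE, adjusted p = 0.021). Their ratio was 0.466, 0.144 and 0.486 at E40, 0.386, 0.473 and 0.421 at E50, and 0.583, 0.391 and 0.444 at E60 and overlapped between all stages. The cartilage markers ACAN, MATN1, MATN3 and LECT1 stayed at or below 2.39 FPKM in every library, whereas HAPLN1, also on that list, measured 1.74, 2.14 and 6.19 FPKM at E40, 169, 217 and 216 FPKM at E50, and 369, 35.7 and 71.7 FPKM at E60. The 7 listed cartilage markers summed to 21.5 to 28.7 FPKM at E40, 189 to 232 FPKM at E50, and 53.4 to 384 FPKM at E60. COL16A1 and COL19A1 had at most 104 and 16 reads in a library, and COL16A1 was not called over 9 libraries.

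COL17A1, the transmembrane collagen of hemidesmosomes that anchors basal epithelial cells, led its class. It measured 73.0, 86.3 and 96.3 FPKM at E40, 89.0, 76.6 and 75.4 FPKM at E50, and 162, 54.9 and 92.6 FPKM at E60. As FPKM it overlapped between E40 and E50 (log2 change -0.08 ± 0.41 SE, adjusted p = 0.88). Its share was 8.85, 8.35 and 7.58% at E40, 2.19, 2.20 and 2.23% at E50, and 3.08, 5.26 and 4.62% at E60, lowest at E50, with a fall from E40 to E50 of -1.90 ± 0.22 SE, adjusted p = 0.0052, on the log2 scale. Within the deep set the log2 change of COL17A1 from E50 to E60 was 1.01 as FPKM and 0.48 as a share.

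KRT5, a basal epithelial keratin, measured 2527, 3015 and 3659.7 FPKM at E40, 2289.8, 1712 and 2386 FPKM at E50, and 2181, 858 and 2635 FPKM at E60. The whole list of 8 epithelial and ameloblast markers summed to 3821 to 5443 FPKM at E40, 2218 to 3149 FPKM at E50, and 4589.5 to 21283 FPKM at E60, with AMBN, AMEL and ENAM, which encode enamel matrix proteins, making up most of the E60 sum, and CDH1 listed at 0 in every library. Their part in the COL17A1 and COL7A1 values was not tested.

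COL23A1 and COL25A1, transmembrane collagens that can be shed, rose from E40 to E50 as FPKM. COL23A1 measured 3.24, 4.34 and 4.98 FPKM at E40, 16.4, 14.0 and 12.8 FPKM at E50, and 10.4, 3.31 and 7.20 FPKM at E60 (log2 change 1.77 ± 0.47 SE, adjusted p = 0.02). COL25A1 measured 8.17, 2.43 and 5.79 FPKM at E40, 38.2, 42.9 and 36.6 FPKM at E50, and 18.2, 9.26 and 8.71 FPKM at E60 (log2 change 2.98 ± 0.49 SE, adjusted p = 0.012), on 3, 1 and 3 reads at E40, 219, 280 and 206 at E50, and 115, 5 and 6 at E60. Neither passed on the share scale from E40 to E50. In the deep set COL25A1 was lower at E60 than at E50 on both scales, by a log2 change of -1.10 as FPKM. COL13A1 was not called over 9 libraries, with shares of 0.145 to 0.203% at E40, 0.0794 to 0.0970% at E50 and 0.0335 to 0.191% at E60.

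COL6A2 and COL6A3 are chains of type VI collagen, which forms beaded filaments around cells. COL6A2 measured 10.5, 12.3 and 13.3 FPKM at E40, 34.4, 24.8 and 28.8 FPKM at E50, and 17.7, 6.36 and 10.6 FPKM at E60. COL6A3 measured 7.96, 10.4 and 13.0 FPKM at E40, 37.2, 30.5 and 29.4 FPKM at E50, and 18.0, 6.50 and 9.003 FPKM at E60. Both rose from E40 to E50 as FPKM, with log2 changes of 1.27 ± 0.41 SE, adjusted p = 0.037 for COL6A2 and 1.64 ± 0.42 SE, adjusted p = 0.019 for COL6A3. Median-ratio scaling ended both calls, short of 2-fold at log2 changes of 0.61 for COL6A2 and 0.98 for COL6A3. It also ended that of COL4A1, at 0.91, and that of COL24A1, at 2.95 ± 1.15 SE with adjusted p = 0.07 by limma.

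As shares, COL6A2 held 1.28, 1.19 and 1.04% at E40, 0.847, 0.713 and 0.850% at E50, and 0.337, 0.610 and 0.530% at E60, and COL6A3 0.966, 1.01 and 1.019% at E40, 0.915, 0.876 and 0.868% at E50, and 0.343, 0.623 and 0.450% at E60. From E40 to E60 the log2 change was -1.28 ± 0.26 SE, adjusted p = 0.012 for COL6A2 and -1.12 ± 0.24 SE, adjusted p = 0.015 for COL6A3. The call of COL6A3 did not stand without E60 library 1 (-0.91 ± 0.20 SE, adjusted p = 0.013). The COL6A3 to COL6A2 ratio stayed between 0.756 and 1.23.

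COL7A1, which forms the anchoring fibrils below basement membranes, measured 10.5, 11.2 and 17.3 FPKM at E40, 18.0, 11.6 and 11.6 FPKM at E50, and 11.3, 4.23 and 6.88 FPKM at E60. Its share was 1.27, 1.09 and 1.36% at E40, 0.443, 0.333 and 0.344% at E50, and 0.215, 0.406 and 0.344% at E60. It fell from E40 to E50 (log2 change -1.73 ± 0.29 SE, adjusted p = 0.01), and E60 lay below E40 both over 9 libraries (-1.98 ± 0.29 SE, adjusted p = 0.0052) and within the shallow set (-1.70 ± 0.27 SE, adjusted p = 0.041). As FPKM it did not change past the limits from E40 to E50 (0.08 ± 0.44 SE, adjusted p = 0.88).

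COL15A1 and COL18A1 are related collagens of the basement membrane zone. COL15A1 measured 2.62, 8.77 and 13.0 FPKM at E40, 50.5, 45.9 and 46.0 FPKM at E50, and 80.3, 12.0 and 21.3 FPKM at E60 and rose from E40 to E50 as FPKM (log2 change 2.80 ± 0.75 SE, adjusted p = 0.021), while its share did not pass (adjusted p = 0.072). COL18A1, the source of endostatin, measured 4.54, 8.10 and 10.1 FPKM at E40, 17.1, 10.3 and 10.7 FPKM at E50, and 14.9, 4.85 and 10.7 FPKM at E60, and its share of 0.550, 0.784 and 0.796% at E40, 0.420, 0.297 and 0.316% at E50, and 0.283, 0.464 and 0.535% at E60 fell from E40 to E50 (-1.03 ± 0.32 SE, adjusted p = 0.027). COL6A5 and COL6A6 had at most 7 and 6 reads in a library.

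**Figure D5:**
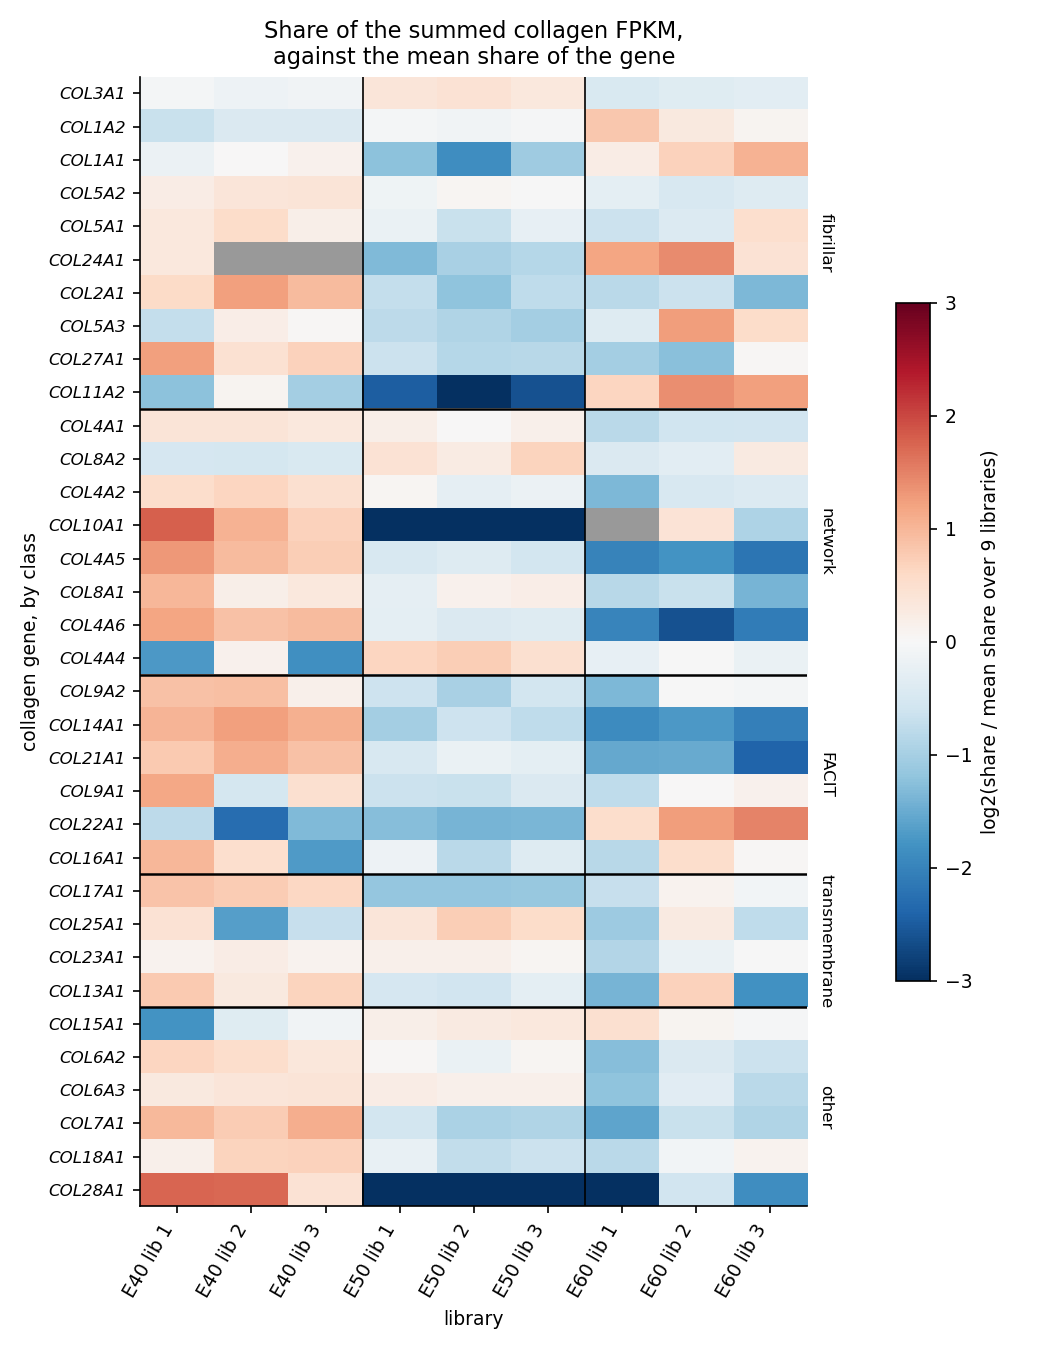
Share of the summed collagen FPKM for the 34 collagens tested (rows, by class) in the 9 libraries (columns), as log2 of the share over the mean share of that gene, from -3 (blue) to 3 (red). Grey cells are values listed at 0. COL14A1, COL21A1, COL4A5 and COL4A6 go from red at E40 to blue at E60, COL22A1 is blue before E60, and COL10A1 and COL28A1 are blue in the deep libraries, save the grey cell of COL10A1 in E60 library 1.

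Across all 34, 17 collagens had their highest shares at E40 with no overlap (40.5% of all genes), 2 at E50 (COL3A1 and COL4A4, 2.2%) and 5 at E60 (COL11A2, COL1A1, COL1A2, COL22A1 and COL24A1, 0.744%). In these rates every gene was divided by the collagen sum, which lowered the median gene after E40. Lowest at E60 were 12 collagens (11.1% of all genes), and lowest at E50 were 4 (COL11A2, COL17A1, COL1A1 and COL5A3, 2.82%). The 9 that stepped down at both transitions were COL14A1, COL21A1, COL4A1, COL4A2, COL4A5, COL4A6, COL5A2, COL6A2 and COL6A3. On the FPKM scale, E60 lay above the earlier stage without overlap in both depth sets for 6 collagens (COL11A2, COL1A1, COL1A2, COL22A1, COL24A1 and COL5A3, against 3.29% of all genes), and below it for 7 (COL10A1, COL14A1, COL21A1, COL4A5, COL4A6, COL7A1 and COL8A1, against 12.4%). COL10A1 in the deep set and COL24A1 in the shallow set lay at or near the floor of 3 reads.

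Genes that make, bind, sense or cut collagen were followed in a list of 52, of which 46 were tested on the FPKM scale. From E40 to E50, 11 rose and 1 fell over 9 libraries, where 38.6% of all genes passed (16.8% higher and 21.8% lower), with a median log2 change of 0.76 against 0.55 over all genes. From E50 to E60 limma called 0, with 9 at an unadjusted p under 0.05 (30.2% of all genes) and 7 called by limma-voom (1.03%), and from E40 to E60 it called 1 (1.8%). Without E60 library 1 the counts were 17 higher and 2 lower, 5 higher and 15 lower, and 5 higher and 0 lower, respectively, where 54.6%, 59.1% and 6.06% of all genes passed. Within the deep set from E50 to E60, 13 of 45 were higher and 1 lower, where 2.86% of all genes were higher and 2.88% lower, and within the shallow set from E40 to E60, 2 of 46 were higher (0.212% of all genes).

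By part of the list, and against the same 38.6% of all genes, from E40 to E50 over 9 libraries the calls fell on 2 of 11 chain-modifying enzymes, 1 of 6 folding factors, 2 of 8 propeptide processing genes, 1 of 3 crosslinking enzymes, 2 of 5 fibril-binding genes, 3 of 7 receptors and 1 of 6 proteases. LUM and DCN, which encode small proteoglycans on collagen fibrils, and CTSK, a collagen-degrading protease, had the 3 largest rises. LUM measured 17.6, 24.5 and 24.5 FPKM at E40, 268, 397 and 359.6 FPKM at E50, and 526, 66.9 and 107 FPKM at E60 (log2 change 3.93 ± 0.67 SE, adjusted p = 0.012). DCN measured 42.2, 46.0 and 55.7 FPKM at E40, 302, 382 and 422 FPKM at E50, and 547, 69.3 and 164 FPKM at E60 (2.94 ± 0.64 SE, adjusted p = 0.013). CTSK measured 6.52, 10.18 and 7.32 FPKM at E40, 44.6, 50.4 and 53.8 FPKM at E50, and 63.3, 11.8 and 18.8 FPKM at E60 (2.64 ± 0.56 SE, adjusted p = 0.013). In all 3, E60 library 1 lay above the E50 libraries and the other E60 libraries between E40 and E50.

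LOXL4, a crosslinking oxidase, was the 1 gene that fell, 6.54, 4.78 and 6.96 FPKM at E40, 2.17, 1.205 and 1.71 FPKM at E50, and 7.16, 3.84 and 7.45 FPKM at E60 (-1.81 ± 0.46 SE, adjusted p = 0.018). PLOD2, the lysyl hydroxylase of collagen telopeptides, was the 1 gene called from E40 to E60, 5.93, 5.88 and 8.64 FPKM at E40, 22.3, 33.2 and 29.3 FPKM at E50, and 391, 65.8 and 109.7 FPKM at E60 (4.38 ± 0.59 SE, adjusted p = 0.0087). It stayed past the limits without E60 library 1 (3.64 ± 0.32 SE, adjusted p = 9.7e-04). It was also called in the shallow set (3.64 ± 0.37 SE, adjusted p = 0.0077), and its log2 change from E50 in the deep set was 3.81. PLOD3 and LOXL3 were listed at 0 in every library.

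Markers of other tissues that a germ could carry were also summed. Muscle markers summed to 52.4 to 79.2 FPKM at E40, 11.7 to 16.4 FPKM at E50, and 19.96 to 112 FPKM at E60, with CKM listed at 0 throughout. Blood markers, mostly the β-globin gene HBB, summed to 227 to 394 FPKM at E40, 728 to 1028 FPKM at E50, and 97.1 to 675 FPKM at E60, highest at E50. The immune markers PTPRC and CSF1R summed to at most 1.21 FPKM, and Schwann cell and nerve markers to at most 1.93 FPKM, with MBP listed at 0. Their part in the collagen values was not tested.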

How the data were processed

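Total RNA of miniature pig Dm3 germs at E40, E50 and E60 (3 libraries each) was depleted of rRNA and sequenced as directional paired-end 125-base reads. The authors aligned them with TopHat, to Sscrofa10.2 by the submitters' processing notes, and deposited 1 table of FPKM for each gene in each library. A further step of scaling is not given in the sources used here. How reads of overlapping or near-identical genes were assigned is not given in the sources used here.

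FPKM values were whole multiples of the value of 1 read, with a tolerance of 0.02 reads, in all 28963 genes above 0. The implied gene lengths were whole numbers, within 0.05 bases, in 99.9% of 19725 genes seen in at least 6 libraries. Totals of 938999 to 16692361 reads per library and reads per gene were computed from this. Intervals (95%, Wilson or exact) and the floor of 3 reads cover counting error only.

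After a filter of 1 FPKM or more in 2 or more libraries, log2(FPKM + 0.1) entered limma 3.58.1 (trend, 1 fit over all 9 libraries, Benjamini-Hochberg over all genes) in R 4.3.3. The study's methods name count-based tools, which FPKM values cannot enter as such. Reads recovered from them entered limma-voom as an alternative. On the share scale each library was divided by its summed collagen FPKM before the fit. A gene passed with adjusted p under 0.05 and a change of 2-fold or more. The scripts were tested on simulated data. Other steps used Python 3.11.15, numpy 2.4.6, pandas 2.3.3 and matplotlib 3.10.9.

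Values in every library were given for collagens with at least 5% of the mean collagen sum at a stage, those past the limits in a comparison of all 9 libraries, and partners in chain ratios. Of the biosynthesis, receptor and protease list, up to 3 genes per direction and comparison with the largest change past the limits were named. The members, classes and lists were chosen with earlier results of these data known. No p was computed for class shares, ratios or sums, since 3 against 3 libraries cannot go below p = 0.1 in a two-sided exact permutation test. Alternatives were another pseudocount, no filter, only the stages compared, a replicate block, limma-voom on recovered reads, a depth term, like-depth libraries, median-ratio scaling, another share denominator, and leaving out each library in turn. On the FPKM scale limma-voom also rescaled the libraries by a trimmed mean of M values. All 38 symbols matched RefSeq genes of Sscrofa11.1, used for names and neighbours only. Sequences and coordinates were not used here.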

Additional observations from a re-analysis of the deposited data

How the results depend on the processing

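On the FPKM scale the number of collagens past the limits from E40 to E50 was 14 over all 9 libraries. It became 0 with a depth term and ranged from 0 to 18 as each library was left out. From E50 to E60 the number was 0, and it became 4 by limma-voom, 8 in deep libraries only, 4 under median-ratio scaling, 11 under that scaling without E60 library 1, and 0 to 24 as each library was left out. From E40 to E60 it was 1, and it became 3 with a pseudocount of 1 FPKM, 0 with only the 2 stages compared in the fit, 11 by limma-voom, 6 with a depth term, 3 in shallow libraries only, 7 under median-ratio scaling, 9 under that scaling without E60 library 1, and 0 to 5 as each library was left out. On the share scale from E40 to E50 it was 14 and became 0 with the depth term. From E50 to E60 it was 0, and it became 1 with a pseudocount of 1 FPKM, 10 by limma-voom, 11 in deep libraries only, 3 among the collagens other than COL3A1, COL1A1 and COL1A2, and 0 to 11 as each library was left out. From E40 to E60 it was 15 and became 3 with only the 2 stages compared and 6 in shallow libraries only. The deep-only and combined alternatives were chosen after seeing the data, and except where fewer libraries entered the fit the cause was not tested.

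Of the log2 changes of named genes, 704 values kept their direction and their side of the limits, 225 kept the direction but missed a limit, 17 newly passed and 6 turned. With the depth term COL1A2 turned to -0.20 (FPKM) and -0.16 (share) and COL4A1 to -0.052 (FPKM), all from E40 to E50. These values rest on the difference of E60 library 1 from E60 libraries 2 and 3, so they cannot decide the direction between these stages. Among the collagens other than COL3A1, COL1A1 and COL1A2, the change turned to 0.60 for COL3A1 from E40 to E60, and for COL5A2 to 0.45 from E40 to E50 and 0.17 from E40 to E60. Counted as reads and not per length, the share was 86.0% for fibrillar, 5.88% for network, 1.63% for FACIT and 2.70% for transmembrane collagens at E50, and 6.46% for the other collagens at E40. The other 70 class shares and all 81 chain ratios recomputed moved by less than 1 SD.

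With the replicate number as a block, 11, 0 and 1 collagens passed from E40 to E50, E50 to E60 and E40 to E60 on the FPKM scale, and 10, 0 and 11 on the share scale. The numbers did not pair the libraries: deviations of same-numbered libraries correlated between -0.52 and 0.11 in 9 pairs, and 0 of 9 libraries were closest to their own number. Low totals of assigned reads limit the minor collagens, since 6 to 10 of the 38 had 3 reads or fewer in a shallow library.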
